A study of Mus musculus with 3 samples.

Results

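Natural killer (NK) cells that were dividing inside day 5 tumours passed through a sort for dendritic cells and make up 415 of the 30209 barcodes measured. They were selected on their own counts: at least 2 of the NK genes Ncr1, Klrb1c and Prf1, and both proliferation genes Mki67 and Top2a, each with 1 or more unique molecular identifiers (UMIs, which count captured transcripts). Cd3e, Xcr1, Cd209a and C1qa, which mark T cells, type 1 and type 2 conventional dendritic cells (cDC1s, cDC2s) and macrophages, each had 0 UMIs. A cell also needed 1000 or more genes and under 10% of UMIs from mitochondrial genes, and was not among the 5806 cDC1s of the authors' table. Of the cells, 139 came from WT mice, 174 from sGSN-/- mice and 102 from sGSN-/-Clec9a-/- mice, and sets of 3 values follow that order.

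The mice were of C57BL/6J background, 6 to 20 weeks old, and carried MCA205 LA-OVA, a fibrosarcoma line that can be transplanted and that makes OVA as a model antigen. Tumours on both flanks were taken on day 5 after injection. The libraries pooled 37 WT mice (25 males, 12 females), 31 sGSN-/- mice (15 males, 16 females), which lack secreted gelsolin, and 27 sGSN-/-Clec9a-/- mice (10 males, 17 females), which also lack DNGR-1, the product of Clec9a. DNGR-1 is a cDC1 receptor that binds actin filaments of dead cells, and secreted gelsolin severs such filaments. Each genotype had 1 library, so that genotypes are described without a test. The gate kept CD11c+ MHCII+ cells without NK1.1, the protein of Klrb1c, and the authors left NK cells and proliferating cells out of their account.

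NK cells kill stressed or transformed cells with perforin and granzymes from secretory granules, and release interferon gamma and chemokines that act on dendritic cells and T cells. Receptors that sense loss of MHC class I or stress ligands pass their signal through small adaptors such as DAP12 and DAP10. IL-15 keeps NK cells alive and can make them divide, and dividing cells copy their DNA in S phase before chromosomes are parted in mitosis. Mouse NK cells mature from Cd27-bearing cells to cells with Itgam and S1pr5, and the mature cells are known to divide less.

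The cells carried NK genes that the rule did not use. Nkg7, a membrane protein of cytotoxic granules, had a UMI in 100, 98.8 and 100% of the cells, against 3.75, 12.8 and 8.24% of cycling cells with C1qa, a macrophage gene. Eomes, a transcription factor of NK cells, had a UMI in 74.8, 83.3 and 76.5% against 0.749, 2.13 and 0.549%. Median depths were 20579 UMIs per cycling NK cell and 24140 per cycling C1qa cell, so both shares lay above those in macrophages, where free RNA and doublets were not separated. Gzma was found in more of the macrophages, with a UMI in 77.7, 83.9 and 85.3% of cycling NK cells and still in 5.99, 22.7 and 12.6% of cycling C1qa cells. Eomes together with low Il7r, at 13.4, 8.91 and 9.75 CPM (UMIs of a gene scaled to a fixed total per group), is the usual profile of NK cells.

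Markers of other cell types were mostly low. The 12 T cell markers summed to 671, 676 and 686 CPM, against 844 ± 51.2 in non-cycling NK cells (mean ± SD over the 3 libraries, here and below), with Trbc1 at 344 CPM the most abundant and 0 of the 12 at 0. Trbc1 encodes a constant region of the T cell receptor beta chain and is also transcribed in NK cells, whereas Cd4 and Cd8a lay at 0.0803 and 0.624 CPM. Cd3d, a signalling chain of the T cell receptor, had a UMI in 13.7, 17.2 and 14.7% of the cells against 1.12, 0 and 1.10% of cycling C1qa cells, where the count of 0 allows up to 2.13%, so some of the cells held T cell transcripts beyond that background. The 12 macrophage markers summed to 292, 199.7 and 69.9 CPM, with Lyz2 at 117, against 9569 ± 232 in cycling C1qa cells. The cDC1, cDC2 and plasmacytoid dendritic cell markers summed to 672 ± 87.3, 117 ± 30.6 and 245 ± 36.7 CPM, led by Irf8, Klf4 and Bst2, which NK cells also express. Markers of type 2 and 3 innate lymphoid cells summed to 59.1 ± 7.07 CPM, led by Gata3, another gene that NK cells express. B cell, neutrophil, tumour stroma and red cell or platelet markers summed to 6.72 ± 6.38, 0.189 ± 0.169, 1.90 ± 1.36 and 0.889 ± 0.847 CPM, with 4 of 8, 6 of 7, 4 of 8 and 5 of 7 genes at 0. A UMI of Cd3d, Cd3g, Clec9a, Lyz2 or C1qb was present in 69.1, 60.9 and 56.9% of cycling and 47.0, 40.8 and 47.4% of non-cycling NK cells, whose median depth was 6384.5 UMIs. Among the cells with the highest doublet scores, 6% of each library, were 6.51% of the cycling and 3.25% of the non-cycling NK cells. Results without either kind of cell are named for some of the genes where they differed, not for all of them.

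Most genes of the sort were low in the cells that passed it. The 14 genes of the gate, among them Itgax (CD11c) and the MHC class II genes, summed to 3444, 3267 and 2183 CPM in cycling NK cells and to 40055 ± 170.2 CPM in cycling C1qa cells, with Cd74 the most abundant in both. Of 9 such genes tested against non-cycling NK cells, 0 rose, 7 fell and 2 did not pass the test (median log2 fold change -0.58), and in thinned cells 0 rose and 6 fell of 7 tested (median -1.03). H2-Ab1, a class II chain, fell from 648 ± 21.2 to 436 ± 104 CPM (log2 fold change -0.60 ± 0.12 with its standard error, adjusted p = 0.00107, edgeR). The change was -1.12 in thinned cells, -1.03 without the cells that held transcripts of other lineages and -0.39 without the sGSN-/-Clec9a-/- library. Ptprc (CD45), which was not low, was at 827, 736 and 724 CPM against 1195, 1292 and 1161 in non-cycling NK cells and 452, 395 and 431 in cycling C1qa cells, and Spn (CD43) was at 80.0, 80.2 and 68.8 CPM against 28.6, 26.5 and 24.8 in cycling C1qa cells.

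No Clec9a UMI was found where the gene had been deleted. Its level was 141, 133 and 0 CPM in cycling cells with Xcr1, a cDC1 gene, and 3.27, 2.41 and 0 CPM in cycling NK cells, where 0 counts of the third library allow up to 1.63 CPM. Gsn, the gelsolin gene, was at 14.7, 11.8 and 6.50 CPM in cycling NK cells and at 233, 238 and 266 CPM in cycling C1qa cells. Counts per gene do not separate the secreted form of gelsolin, which the knockout removes, from the intracellular form, so they cannot show the deletion.

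The rule drew a line through graded values. Of the 415 cells, 61 had a single Mki67 UMI, 54 a single Top2a UMI and 31 a single UMI of each, with medians of 7 and 11 and highest values of 48 and 65. Just outside lay 148 NK cells with Mki67 and no Top2a and 306 with Top2a and no Mki67, both with a median of 1 UMI of the gene they had. Ncr1, which encodes the receptor NKp46, was present in 406 of the cells, Klrb1c in 389, Prf1 (perforin) in 350, and all of them in 315. A further 266 barcodes met the rest of the rule but held Cd3e, Xcr1, Cd209a or C1qa, while 28 failed on mitochondrial share alone, 1 on its number of genes alone and 30 on holding 1 of the NK genes. No deposited cDC1 met the rest of the rule. The cells had 1376 genes or more, and between 2590 and 83894 UMIs.

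Cycling NK cells were deeper than other NK cells in every library. Their medians were 21764, 22410.5 and 17432.5 UMIs and 4047, 4283 and 3718 genes per cell, with mitochondrial shares of 1.81, 1.84 and 2.33%. The 1786 non-cycling NK cells, which met the same rule with 0 UMIs of Mki67 and Top2a, had medians of 7408, 6316 and 5741 UMIs. Summed over cells, cycling NK cells gave 3063034, 4150854 and 1845884 UMIs, of library totals of 176578136, 109270958 and 113411930. Libraries shared 26, 28 and 27 barcodes in pairs, none of them among the 415 cells.

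Against non-cycling NK cells, the cycling cells gave a smaller share of their transcripts to Ccl5, Gzma, adaptor chains and many surface receptors, and a larger share to Gzmc and to enzymes that make nucleotides. With a median of 20579 UMIs per cycling and 6384.5 per non-cycling cell, a gene can take a smaller share of a cell's transcripts without being rarer in it. UMIs per cell are given where this matters. A rule that asks for UMIs of Mki67 and Top2a also favours deeper cells. UMIs per cell were not matched for depth, so they do not by themselves show how many transcripts a cell held. UMIs were summed per library and group and compared with edgeR, with the 3 libraries as replicates, so that the spread includes genotype. Of 9933 genes, 2046 were higher in cycling cells (20.6%) and 1858 lower (18.7%) at an adjusted p under 0.05, 39.3% in either direction, and 709 and 295 of these differed by more than 2-fold. The direction of the cell cycle genes follows from the rule, and that of the nucleotide enzymes may follow from it too. With each cell thinned to 8263 UMIs, and the cells under that number left out, 1038 were higher and 756 lower of 7757. Thinning left out 254, 499 and 453 non-cycling cells, so thinned values compare cycling cells with the deeper non-cycling ones only, and they stand beside many of the named genes. Without the sGSN-/- library 1473 were higher and 1078 lower.

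Most granule genes took a smaller share of transcripts. Of 22 tested from a list of 23, 3 rose, 12 fell and 7 did not pass the test (median log2 fold change -0.46), while the median over all 9933 genes was -0.02. Those that rose were Gzmc, Rab27a, which brings granules to the membrane, and Tnfsf10, the death ligand TRAIL. In thinned cells 1 rose and 10 fell of 17 tested (median -0.32), with Gzmc the riser.
Gzma, a granzyme with trypsin-like activity (ENSMUSG00000023132, chromosome 13, 113093825 to 113100981, minus strand, GRCm38 as all positions here), was at 2019, 2013 and 2651 CPM in cycling and 4715, 5649.9 and 5481 CPM in non-cycling cells. The groups did not overlap (log2 fold change -1.27 ± 0.12, adjusted p = 4.75e-07, -0.81 in thinned cells). Per cell, however, Gzma gave 44.5, 48.0 and 48.0 UMIs in cycling and 39.4, 42.5 and 36.7 in non-cycling cells. Its share thus fell while its UMIs per cell, which were not matched for depth, did not. Gzmb, the granzyme that starts caspase cleavage (ENSMUSG00000015437, chromosome 14, 56258838 to 56262260, minus strand), was at 767, 880.1 and 787 against 1132, 1070 and 1076 CPM (log2 fold change -0.46 ± 0.08, adjusted p = 0.00024). Its UMIs per cell were 16.9, 20.99 and 14.2 in cycling and 9.45, 8.05 and 7.21 in non-cycling cells, and without the cells that held transcripts of other lineages the change was -0.22 and did not pass.
Gzmc went the other way. This neighbour of Gzmb (ENSMUSG00000079186, chromosome 14, 56231441 to 56234656, minus strand) was at 2616, 2534 and 1683 CPM in cycling and 1195, 1022 and 776 CPM in non-cycling cells, higher in each library (log2 fold change 1.16 ± 0.14, adjusted p = 1.1e-05, 0.44 in thinned cells). It gave 57.6, 60.5 and 30.4 UMIs per cycling and 9.98, 7.69 and 5.20 per non-cycling cell, and a UMI was present in 64.0, 73.0 and 53.9% and 32.6, 33.0 and 20.97% of them, against 7.12, 13.5 and 3.30% of cycling C1qa cells. Gzmc is one of several close copies on chromosome 14, and Gzmf, next in that row, was at 6.86, 5.54 and 4.33 CPM with its UMIs in 6, 3 and 3 cells. Nkg7 fell from 1813 ± 60.7 to 1072 ± 98.7 CPM (log2 fold change -0.79 ± 0.09, adjusted p = 4.68e-06, -0.58 in thinned cells). Fasl, the ligand that kills through the death receptor Fas, was at 71.2, 65.5 and 83.4 against 153, 135 and 132 CPM (log2 fold change -0.98 ± 0.11, -0.73 in thinned cells). Stx11, a syntaxin needed for granule release, and Serpinb9b, a serine protease inhibitor, fell by 1.06 and 1.23 on the log2 scale, the latter varying from -0.88 without the WT library to -1.70 without the sGSN-/- library. Srgn, the proteoglycan core that packs granules, and Ctsw, a cathepsin of cytotoxic cells, fell by 0.46 and 0.37. In NK cells with only Mki67 or Top2a, Gzma was at 3149, 3572 and 4501 CPM and Gzmc at 2463, 2144 and 1684 CPM, both between the other groups or near the cycling one.

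Among secreted factors the chemokine gene Ccl5 changed most. Of 15 cytokine and chemokine genes tested from a list of 18, 1 rose, 8 fell and 6 did not pass the test (median log2 fold change -0.29), and in thinned cells 0 rose and 4 fell of 14 tested (median -0.21). The riser was Csf2, a myeloid growth factor gene at 19.9, 38.8 and 1.08 against 16.4, 2.87 and 3.48 CPM, whose UMIs came from 6, 8 and 1 cells, were absent from WT and sGSN-/- cells without transcripts of other lineages, and whose log2 fold change of 1.67 ± 0.61 was 0.27 without the sGSN-/- library and 0.72 in thinned cells, passing in neither. Ccl5 (ENSMUSG00000035042, chromosome 11, 83525778 to 83530518, minus strand), whose product draws T cells and dendritic cells, was at 659, 445 and 769.8 CPM in cycling and 3995, 4897 and 5958 CPM in non-cycling cells. Every cycling value lay below every non-cycling one (log2 fold change -3.02 ± 0.19, adjusted p = 4.09e-09, -1.44 in thinned cells). Here the UMIs per cell were lower too, at 14.5, 10.6 and 13.9 per cycling against 33.4, 36.8 and 39.9 per non-cycling cell. NK cells with only Mki67 or Top2a lay between, at 1365, 2134 and 2256 CPM. Ccl3 and Ccl4, which attract myeloid cells, were at 63.3, 19.0 and 76.9 and 336, 192 and 398 CPM against 141, 128 and 146 and 746, 926 and 1123. Their log2 fold changes of -1.52 ± 0.29 and -1.64 ± 0.21 shrank to -0.26 and -0.47 in thinned cells, where neither passed. Xcl1, the ligand of the cDC1 receptor Xcr1, was at 1974, 2234 and 1763 against 1967, 1626 and 1639 CPM and did not pass the test (adjusted p = 0.182). Per cell that came to 43.5, 53.3 and 31.9 Xcl1 UMIs in cycling and 16.4, 12.2 and 11.0 in non-cycling cells. Flt3l, the growth factor of dendritic cells, was at 27.1, 32.5 and 27.6 against 50.8, 48.7 and 38.02 CPM (log2 fold change -0.67 ± 0.12, adjusted p = 0.000561, -0.78 in thinned cells). Tgfb1, which restrains NK cells, fell by 0.52 on the log2 scale. Ifng, the gene of interferon gamma, changed sign between settings: it was at 185, 164 and 161 against 235, 201 and 273 CPM (log2 fold change -0.50 ± 0.11), but its change was 0.28 in thinned cells and did not pass there.

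**Figure D1:**
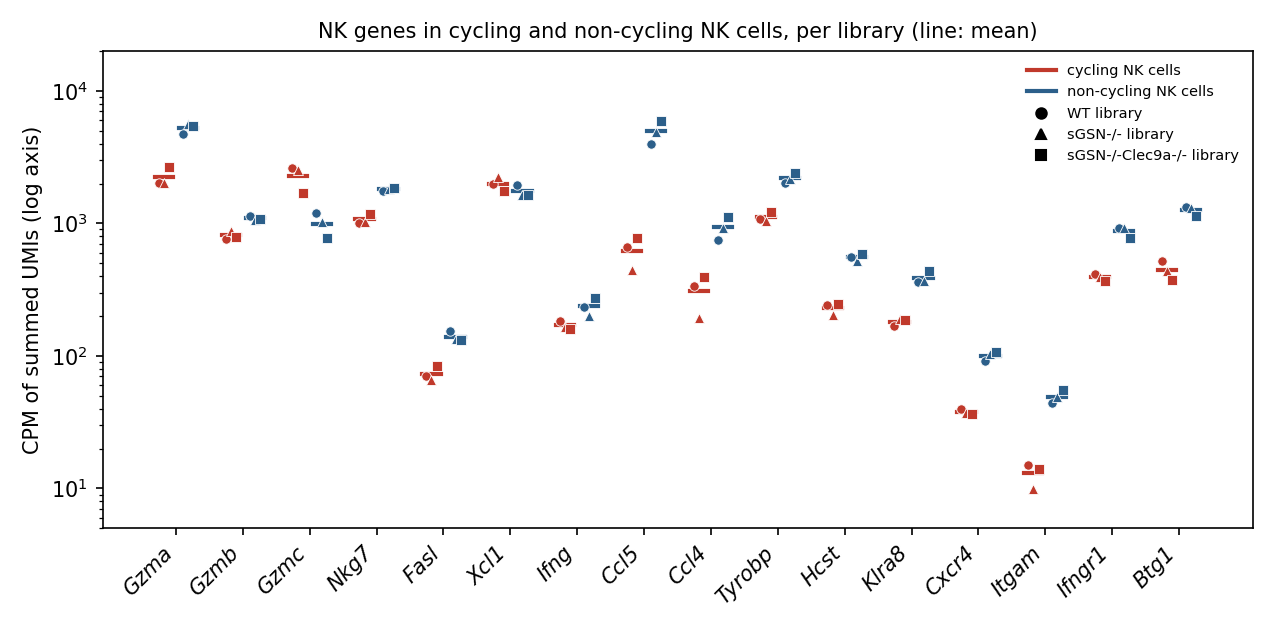
CPM on a log axis of 16 NK cell genes in cycling and non-cycling NK cells, 1 point per library and a line at the mean. Ccl5 lies at 659, 445 and 770 CPM in cycling cells, below its 3 non-cycling values, and Gzmc lies above its non-cycling values.

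Many adaptors and activating receptors were lower. Of 19 activating receptor and adaptor genes tested from a list of 20, 0 rose, 14 fell and 5 did not pass the test (median log2 fold change -0.57), and in thinned cells 0 rose and 10 fell of 19 tested (median -0.43). Tyrobp, which encodes DAP12 (ENSMUSG00000030579, chromosome 7, 30413760 to 30417585, plus strand), was at 1077, 1045 and 1228 against 2020.4, 2163 and 2402 CPM (log2 fold change -1.01 ± 0.10, adjusted p = 9.52e-07, -0.81 in thinned cells). Hcst, which encodes DAP10 and sits beside it on chromosome 7, was at 244, 203 and 249 against 559.5, 517 and 588 CPM (log2 fold change -1.29 ± 0.10, -0.96 in thinned cells). In both genes the 3 cycling libraries lay below the 3 non-cycling ones. Fcer1g, the chain that carries the signal of NKp46 and of the Fc receptor, fell by 0.57 on the log2 scale from 2145 CPM, and Fcgr3, the Fc receptor CD16, by 0.88 from 39.1 CPM (-1.42 without the cells that held transcripts of other lineages). Slamf7 and Icos, a receptor and a costimulatory receptor of lymphocytes, fell by 0.61 and 0.88. Klrb1f and Klrk1, the latter encoding NKG2D, were at 140.1, 136 and 147 and 430, 424 and 421 CPM against 134, 134 and 124 and 496, 487 and 504.

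More inhibitory receptors were lower than higher. Over all genes 18.7% were lower and 20.6% higher, and the difference from these shares was not tested. Of 19 tested from a list of 20, 2 rose, 7 fell and 10 did not pass the test (median log2 fold change -0.35), and in thinned cells 1 rose and 6 fell of 17 tested (median -0.37). Klra genes encode the Ly49 receptors for MHC class I, a cluster of near copies on chromosome 6 whose reads cannot be told apart with certainty. Klra8, an activating member that sees a viral protein, was at 168, 189.8 and 187 against 359, 371 and 434 CPM (log2 fold change -1.12 ± 0.10, -0.69 in thinned cells), and the inhibitory Klra9 at 131, 101.4 and 94.3 against 219, 232 and 226 CPM (-1.07 ± 0.10, -0.53 in thinned cells). Lair1 and Klra5 were the risers. Klra5 was at 23.8, 32.8 and 22.8 against 9.95, 19.4 and 11.4 CPM (log2 fold change 0.92 ± 0.22, 0.77 in thinned cells), though without the cells that held transcripts of other lineages its change of 0.76 did not pass. Klrb1b, an inhibitory relative of Klrb1c, fell by 0.65 on the log2 scale, and Entpd1, the ectoenzyme CD39, by 1.24 (-1.82 without the cells that held transcripts of other lineages). Klrc1, which encodes the inhibitory NKG2A, and Cd96 did not pass, at 151, 106 and 130 and 45.7, 39.8 and 43.9 CPM against 149.8, 135 and 133 and 45.2, 49.4 and 46.7. Among 21 genes of NK identity tested, some of them also in these lists, 0 rose, 18 fell and 3 did not pass the test (median log2 fold change -0.45), and in thinned cells 0 rose and 12 fell of 21 tested (median -0.40).

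Most tested genes of early and of late NK maturation were lower, though fewer were in thinned cells. Of the 13 early genes, 1 rose, 9 fell and 3 did not pass the test (median log2 fold change -0.41), and of the 13 late genes, 0 rose, 10 fell and 3 did not pass the test (median log2 fold change -0.81). In thinned cells the late list showed less: 1 rose and 2 fell of 9 tested (median -0.20), while of the early list 0 rose and 6 fell of 13 tested (median -0.38). The early riser was Thy1, which did not pass in thinned cells. Cd27, a costimulatory receptor of less mature NK cells, was at 49.6, 44.6 and 43.9 against 93.6, 84.1 and 92.0 CPM (log2 fold change -0.99 ± 0.10, adjusted p = 1.41e-06, -0.64 in thinned cells). Itgam, the CD11b chain of mature NK cells, was at 15.02, 9.88 and 14.1 against 43.9, 48.7 and 55.2 CPM, below in each library (log2 fold change -2.00 ± 0.16, adjusted p = 1.29e-07, -1.08 in thinned cells). S1pr5, by which mature NK cells leave lymph nodes and marrow, was at 0.979, 0.723 and 2.71 against 5.11, 6.29 and 6.71 CPM (log2 fold change -2.31 ± 0.42) and had too few UMIs to be tested in thinned cells. Zeb2, a factor of terminal maturation, was at 37.9, 30.4 and 29.8 against 52.2, 68.1 and 58.9 CPM, but its log2 fold change of -0.91 ± 0.12 became -0.05 in thinned cells. Klf2, which keeps lymphocytes quiescent, changed sign, from -0.72 ± 0.15 to 0.69 in thinned cells, and without the sGSN-/- library its change of -0.56 did not pass. Of 12 genes of type 1 innate lymphoid cells and tissue residency tested from 13, 2 rose, 4 fell and 6 did not pass the test (median log2 fold change 0.22), and in thinned cells 1 rose and 1 fell of 9 tested (median -0.09). The risers were Tnfsf10 and Inpp4b, a phosphatase of lipid signalling. Cd69, a residency and activation receptor, did not pass at 121, 97.6 and 118 against 95.8, 83.5 and 109 CPM.

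Many receptors for leaving and entering tissue were lower, though fewer were in thinned cells. Of the 21 trafficking genes, 0 rose, 16 fell and 5 did not pass the test (median log2 fold change -0.58), and in thinned cells 1 rose and 7 fell of 16 tested (median -0.33). Cxcr4, the receptor that holds cells in marrow, was at 39.8, 36.9 and 36.3 against 91.5, 103 and 107 CPM (log2 fold change -1.45 ± 0.11, adjusted p = 3.16e-08, -0.97 in thinned cells). S1pr4, a receptor for sphingosine 1-phosphate, and Selplg, a surface glycoprotein for rolling along vessel walls, fell by 1.03 and 0.62 on the log2 scale. Itga2, the integrin chain CD49b by which mouse NK cells are often sorted, was at 25.8, 19.8 and 19.5 against 55.1, 52.3 and 55.9 CPM. Its log2 fold change of -1.35 ± 0.12 became -0.20 in thinned cells and did not pass there.

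Many transcription factor and cytokine receptor genes were lower. Of 24 NK transcription factor genes tested from 26, 1 rose, 18 fell and 5 did not pass the test (median log2 fold change -0.48), and in thinned cells 1 rose and 5 fell of 21 tested (median -0.25). The riser was Id3, an inhibitor of E proteins, and in thinned cells Klf2. Eomes and Tbx21 (T-bet), the T-box factors that specify NK cells, were at 102, 139.7 and 127 and 51.6, 52.5 and 62.8 CPM against 157, 179 and 158 and 64.8, 71.1 and 78.0. Their log2 fold changes of -0.45 ± 0.11 and -0.41 ± 0.12 became -0.10 and -0.25 in thinned cells, where neither passed, and Tbx21 also missed the threshold without the WT library, the sGSN-/- library or the cells that held transcripts of other lineages, though its change was similar there at -0.41, -0.38 and -0.45. Ets1 and Nfil3, both needed to form NK cells, fell by 0.70 and 0.62, and Irf8, which NK cells share with cDC1s, by 0.65. Of the 20 genes around IL-2 and IL-15, 0 rose, 10 fell and 10 did not pass the test (median log2 fold change -0.35), and in thinned cells 0 rose and 6 fell of 19 tested (median -0.32). Il2rb, the receptor chain that both cytokines share, was at 538, 503 and 514 against 702, 749 and 726 CPM (log2 fold change -0.51 ± 0.07, adjusted p = 4.22e-05). Bcl2, which keeps NK cells alive, and Bcl2l11, the gene of its antagonist Bim, fell alike, by 0.93 and 0.95 on the log2 scale. Jak1, the kinase of these receptors, fell by 0.73, and Myc, which drives growth, did not pass at 29.4, 22.9 and 27.1 against 24.2, 20.1 and 25.8 CPM. Of 11 genes around IL-12, IL-18 and interferon receptors tested from 12, 0 rose, 8 fell and 3 did not pass the test (median log2 fold change -0.70), and in thinned cells 0 rose and 4 fell of 11 tested (median -0.37). Ifngr1, a chain of the interferon gamma receptor, was at 413, 395 and 371 against 931, 930.5 and 771 CPM (log2 fold change -1.19 ± 0.08, adjusted p = 9.83e-09, -0.75 in thinned cells). Il12rb2, the signalling chain of the IL-12 receptor, was at 24.5, 21.9 and 20.6 against 54.3, 67.5 and 57.6 CPM (-1.45 ± 0.12, -0.77 in thinned cells). Stat4, which carries the IL-12 signal to the nucleus, fell by 0.74 on the log2 scale (-0.43 in thinned cells).

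Enzymes that build nucleotides rose. The cells were chosen by genes of division, so this direction may follow from the rule, and the p-values here do not separate the 2. Of the 26 genes, 22 rose, 0 fell and 4 did not pass the test (median log2 fold change 0.96), and in thinned cells 14 rose and 0 fell of 26 tested (median 0.59). Mthfd2, which supplies one-carbon units in mitochondria, was at 54.5, 52.8 and 54.7 against 13.4, 16.4 and 12.2 CPM (log2 fold change 1.89 ± 0.12, adjusted p = 7.81e-09, 1.66 in thinned cells). Shmt1, which feeds the same pathway in the cytosol, was at 18.3, 22.9 and 21.1 against 2.96, 5.03 and 2.24 CPM (2.51 ± 0.25, 1.955 in thinned cells). Dctpp1, which clears unwanted nucleotides, and Dtymk, which makes the precursor of thymidine triphosphate, rose by 1.84 and 1.43 on the log2 scale, and Impdh2, which leads into guanine nucleotides, by 1.06 (0.72 in thinned cells). Slc29a1, a nucleoside carrier, was at 52.2, 50.8 and 58.5 against 19.4, 15.8 and 16.1 CPM (log2 fold change 1.62 ± 0.13, 1.16 in thinned cells). Among 9 nutrient carriers tested from 10, 4 rose, 2 fell and 3 did not pass the test (median log2 fold change 0.39), and in thinned cells 3 rose and 1 fell of 9 tested (median 0.06). Tfrc, the transferrin receptor that brings in iron, rose by 0.83 on the log2 scale, and by 1.20 in thinned cells. Slc3a2, a partner chain of amino acid carriers, fell by 0.54 (-0.35 in thinned cells). Glycolysis changed less in thinned cells: of 17 genes, 8 rose, 0 fell and 9 did not pass the test (median log2 fold change 0.34), but in thinned cells 5 rose and 1 fell of 17 tested (median 0.07). Ldha, which makes lactate, was at 749, 732 and 717 against 515, 499.5 and 457 CPM (log2 fold change 0.55 ± 0.07, 0.26 in thinned cells), and Tpi1, an enzyme of the same pathway, rose by 0.64.

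Many interferon-stimulated genes were lower, and none passed the test as higher. Of 21 tested from 24, 0 rose, 15 fell and 6 did not pass the test (median log2 fold change -0.61), and in thinned cells 0 rose and 12 fell of 20 tested (median -0.69). Ifit1, an antiviral protein that binds RNA, was at 3.92, 1.45 and 1.08 against 8.07, 13.7 and 8.95 CPM (log2 fold change -2.26 ± 0.37, adjusted p = 0.000183, -2.82 in thinned cells). It rested on 12, 6 and 2 UMIs of cycling cells, and its size varied, from -3.10 without the WT library to -1.63 without the sGSN-/- library. Rtp4 and Irf7, an interferon-induced protein and a factor of the interferon response, fell by 1.48 and 1.05 on the log2 scale. Isg15, a ubiquitin-like modifier, was at 50.3, 40.5 and 44.96 against 69.1, 64.7 and 67.8 CPM (log2 fold change -0.61 ± 0.11, -0.99 without the cells that held transcripts of other lineages). Of the 20 immediate early and stress genes, 3 rose, 8 fell and 9 did not pass the test (median log2 fold change -0.29), and in thinned cells 2 rose and 4 fell of 20 tested (median -0.04). Junb, an AP-1 factor, fell by 0.75 on the log2 scale (-0.42 in thinned cells), while the chaperones Hsp90aa1 and Hspa8 rose by 0.46 and 0.38.

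Outside all lists of cell cycle genes, the largest rises were again genes of dividing cells, whose direction follows from the rule. Among genes with 50 CPM or more they included Hist1h3b, a histone gene of S phase, at 198, 136 and 228 against 0.269, 0.719 and 0.994 CPM (log2 fold change 8.002 ± 0.31). Its level in non-cycling cells was near 0, so the size of this change is not firm. It was 7.165 in thinned cells and 8.863 without the cells that held transcripts of other lineages. Pclaf, which binds the replication clamp, and Esco2, which sets sister chromatid cohesion, changed by 6.38 ± 0.12 and 6.67 ± 0.28. Esco2 lay near 0 in non-cycling cells, at 0.269, 1.62 and 0 CPM, so the size of its change is not firm, with 8.93 without the sGSN-/- library and 9.78 in thinned cells. The deepest falls after Ccl5 included Pde2a, a phosphodiesterase, at 24.8, 19.8 and 15.7 against 68.3, 64.1 and 71.1 CPM (log2 fold change -1.75 ± 0.13, adjusted p = 3.65e-08, -1.07 in thinned cells and -2.23 without the cells that held transcripts of other lineages). Clec2d, the ligand of Klrb1 family receptors, was at 39.2, 34.0 and 42.3 against 117, 92.9 and 128 CPM (-1.60 ± 0.14, -1.16 in thinned cells). Ypel3, a growth suppressor, and Mxd1, an antagonist of Myc, fell by 1.56 and 1.43 on the log2 scale (-1.06 and -0.997 in thinned cells).

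The cell cycle genes themselves are described without a test against non-cycling cells, since the rule chose for them. Replication genes of S phase, 64 in the list, all had positive log2 fold changes with a median of 2.01, and in thinned cells of 1.62. Mitosis genes had a median of 4.70 over 86 measured, and of 4.29 in thinned cells. Rrm2, the ribonucleotide reductase subunit of S phase, was at 234, 212 and 217 against 3.23, 3.23 and 2.73 CPM. Ccnb2, a cyclin of mitosis, was at 116, 117 and 118 against 5.11, 3.23 and 1.99 CPM, and Pttg1, the securin gene, lay the other way at 33.0, 30.4 and 22.2 against 41.4, 39.5 and 35.5 CPM. Mcm5, a subunit of the replicative helicase, was present in both groups, at 129, 129.6 and 124 against 37.4, 38.1 and 32.8 CPM. Among regulators, Cdk4 was at 159.6, 154 and 166 against 84.7, 72.8 and 76.5 CPM, Btg1, which slows division, at 517, 439.9 and 374 against 1326, 1301 and 1134, and Cdkn1b, the inhibitor p27, at 55.2, 50.4 and 46.6 against 93.9, 104 and 85.0. Ccnd2, a D-type cyclin, was lower in cycling cells, at 182, 178 and 152 against 426, 365 and 405 CPM, and Ccnd3 was similar at 107, 106 and 119 against 109.5, 123 and 111.

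The libraries had nearly the same balance of S phase and mitosis. Of all UMIs on both lists, S phase genes gave 31.3, 30.5 and 30.1% in cycling NK cells (30.6% ± 0.579). The same share was 29.0% ± 3.22 in cycling C1qa cells and 27.5% ± 1.94 in cycling Xcr1 cells. By library it was 32.7, 27.1 and 27.1% in cycling C1qa cells, above the NK value in WT and below it in the others, and 29.7, 26.8 and 25.98% in cycling Xcr1 cells, below the NK value in each. No test was made of these shares. Single cells spanned the cycle, from 3.75 to 71.6% in the WT library, with medians of 37.4, 36.5 and 33.2% in the 3 libraries. More S phase than mitosis UMIs were found in 33, 43 and 25 cells, and 26, 31 and 18 cells lay between 45 and 55%, too near the line to be placed firmly.

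NK genes were also compared between cells with more S phase and cells with more mitosis UMIs, with the cells near the line included. These values carry no test, and the cells are few. Agreement between libraries is no result here, since most of the genes were chosen because their values differed alike in the libraries. Gzma and Gzmc did not. Gzma was at 1582, 2495 and 3265 CPM in the cells with more S phase UMIs against 2138, 1877 and 2457 CPM in the others, and Gzmc at 1889, 2977 and 2775 against 2814, 2410.1 and 1338 CPM. Gzmb was at 1063, 1219 and 1353 CPM in the cells with more S phase UMIs and at 687, 785 and 609 CPM in the others. Bcl2 was at 211, 237 and 210 against 140.3, 170.1 and 148 CPM. Icos and Ltb, a membrane-bound lymphotoxin, went the same way, at 41.2, 38.4 and 40.6 and 202, 165 and 154 against 27.4, 20.99 and 18.5 and 107, 137 and 92.7 CPM. The opposite held for Klf2, at 36.7, 57.1 and 56.5 against 138, 138 and 197 CPM. Ifng was at 119, 90 and 126 against 203, 186 and 172 CPM and Klrc1 at 81.0, 69.2 and 83.5 against 169.8, 116 and 145.

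Against other dividing cells of the same tumours, cycling NK cells gave a larger share of their transcripts to many replication and nucleotide genes. The 590 cycling C1qa cells and 912 cycling Xcr1 cells met the same Mki67 and Top2a rule, so cell cycle genes could be tested there with edgeR, while lineage genes were used to choose the groups and are not. Of 10467 genes tested against cycling C1qa cells, 29% were higher and 32.3% lower in cycling NK cells (61.2% in either direction), and of 10666 against cycling Xcr1 cells, 28.6% were higher and 30.2% lower (58.9%). Without TMM scaling the median over all genes in the comparison with cycling Xcr1 cells moved from 0.016 to 0.162, so log2 fold changes there shift by about that much. Counts then turned to 3938 higher and 2671 lower, and against cycling C1qa cells to 3490 higher and 3063 lower, so whether more genes were higher or lower depends on the scaling. In thinned cells 2034 were higher and 2301 lower of 8258 against cycling C1qa cells, and 2104 and 2297 of 8785 against cycling Xcr1 cells.

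Of the 64 replication genes, 57 rose, 1 fell and 6 did not pass the test (median log2 fold change 0.62) against cycling C1qa cells, and 37 rose, 2 fell and 25 did not pass the test (median log2 fold change 0.30) against cycling Xcr1 cells. In thinned cells 45 rose and 1 fell of 64 tested (median 0.56) and 22 rose and 3 fell of 64 tested (median 0.24) in these comparisons. Dut, which keeps uracil out of DNA, was at 522, 487 and 548 CPM in cycling NK cells, 194, 174 and 162 in cycling C1qa cells and 249, 253 and 207 in cycling Xcr1 cells. It rose against both (log2 fold change 1.47 ± 0.09 and 0.99 ± 0.08, adjusted p = 2.53e-09 and 1.45e-07). Slbp, which binds histone messenger RNA, rose by 0.96 and 0.81 on the log2 scale, and Mcm6, a subunit of the replicative helicase, by 0.99 and 0.64. The gene that fell against cycling C1qa cells was Gins1, and those that fell against cycling Xcr1 cells were Mcm10 and Timeless, which guards the replication fork and fell by 1.05. Of the 87 mitosis genes, 54 rose, 5 fell and 28 did not pass the test (median log2 fold change 0.46) against cycling C1qa cells, and 21 rose, 13 fell and 53 did not pass the test (median log2 fold change 0.11) against cycling Xcr1 cells. In thinned cells 33 rose and 3 fell of 85 tested (median 0.30) and 16 rose and 11 fell of 85 tested (median 0.09). Over all genes in thinned cells, 2104 rose and 2297 fell of 8785 in the second comparison, and the difference was not tested. Cdc25b, the phosphatase that starts mitosis, rose by 1.77 and 1.41, while Ckap2l, a spindle protein, fell by 0.88 and 1.23. Hmgb2, a chromatin protein, was at 3528, 3244 and 3863 CPM in cycling NK cells against 1619, 1627 and 1619 and 2739.5, 2838 and 2913 CPM in the others.

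Of the 36 cycle regulators tested, 13 rose, 12 fell and 11 did not pass the test (median log2 fold change 0.10) against cycling C1qa cells, and 12 rose, 12 fell and 12 did not pass the test (median log2 fold change 0.02) against cycling Xcr1 cells. These fractions are close to those over all genes, so the list as a whole did not stand out, and single regulators are given. D-type cyclins open the way from growth signals to S phase, and the dividing cell types differed in which they held. Ccnd1 was at 15.7, 19.3 and 18.4 CPM in cycling NK cells, 312, 260.3 and 263 in cycling C1qa cells and 308, 323 and 342 in cycling Xcr1 cells. It was far lower in each NK library (log2 fold change -4.05 ± 0.12 and -4.33 ± 0.11, adjusted p = 1.88e-12 and 2.25e-13). Ccnd2 was at 182, 178 and 152 CPM, against 167, 182 and 168 in cycling C1qa cells, which did not pass, and 56.5, 62.8 and 53.1 in cycling Xcr1 cells, where it rose by 1.43 on the log2 scale. Ccnd3 was similar in all groups, at 107, 106 and 119, 95.1, 77.0 and 88.5 and 115, 113 and 106 CPM in turn. Cdk6, a kinase partner of these cyclins, rose by 1.04 and 1.04. Cdkn1a, the inhibitor p21, was at 146, 160 and 136 CPM against 557, 622 and 612 and 285, 301 and 281 (log2 fold change -2.09 ± 0.09 and -1.11 ± 0.08). Cdkn1b fell by 0.44 and 1.35, and Btg2, which slows division, by 1.12 and 1.88. Fbxo5, the inhibitor of the anaphase-promoting complex also called Emi1, was at 109, 129 and 133 CPM against 35.4, 35.8 and 37.4 and 61.9, 62.5 and 53.1 (1.68 ± 0.11 and 0.91 ± 0.10). Rbl2, a relative of the retinoblastoma protein, rose by 1.32 and 1.72.

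**Figure D2:**
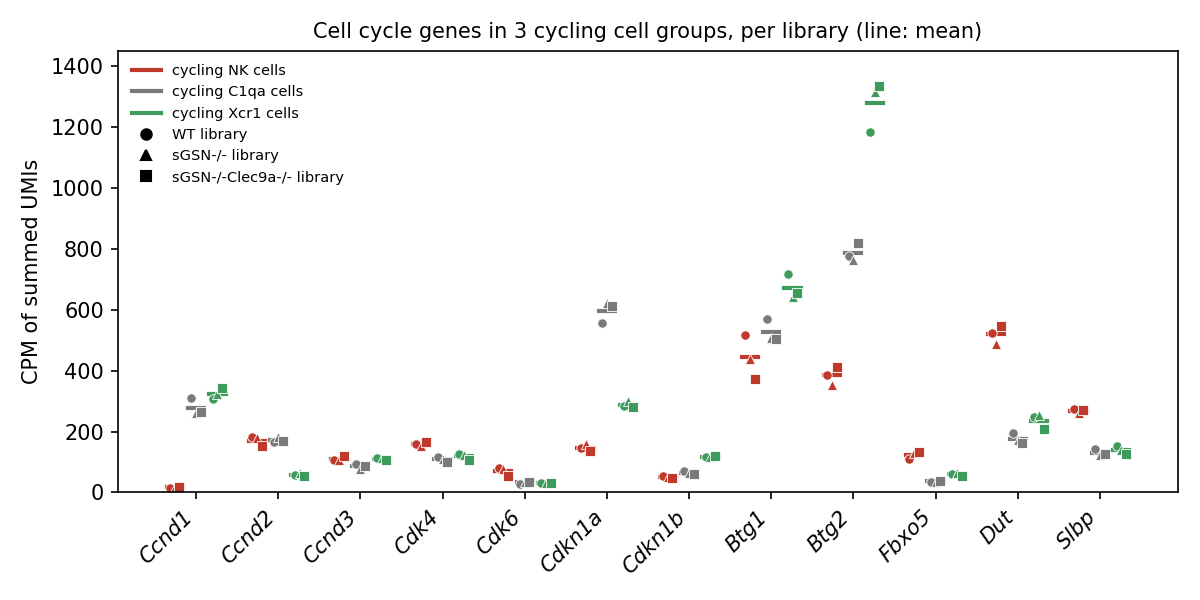
CPM of 12 cell cycle regulators and S phase genes in cycling NK, cycling C1qa and cycling Xcr1 cells, 1 point per library and a line at the mean. Ccnd1 is low in cycling NK cells at 15.7, 19.3 and 18.4 CPM, and Dut and Fbxo5 are highest there.

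Metabolic genes of cycling NK cells also differed from those of other dividing cells. Of the 26 nucleotide genes, 19 rose, 3 fell and 4 did not pass the test (median log2 fold change 0.45) against cycling C1qa cells, and 20 rose, 3 fell and 3 did not pass the test (median log2 fold change 0.70) against cycling Xcr1 cells. Cad, which starts pyrimidine synthesis, was at 41.5, 33.7 and 28.7 CPM against 10.6, 12.3 and 12.8 and 6.26, 6.84 and 8.78 (log2 fold change 1.48 ± 0.16 and 2.12 ± 0.17). Impdh1, a step to guanine nucleotides, was at 40.2, 35.9 and 29.2 CPM against 11.5, 12.03 and 15.3 and 3.52, 4.13 and 4.25, higher in each NK library (log2 fold change 1.37 ± 0.16 and 3.02 ± 0.17). Ppat, the first step of purine synthesis, rose by 1.45 and 1.23. Of the 17 glycolysis genes, 3 rose, 11 fell and 3 did not pass the test (median log2 fold change -0.51) against cycling C1qa cells, and 9 rose, 5 fell and 3 did not pass the test (median log2 fold change 0.18) against cycling Xcr1 cells. Slc2a3, a glucose carrier, was at 16.98, 16.6 and 19.5 CPM against 5.47, 3.61 and 6.05 and 3.13, 2.28 and 1.98 (log2 fold change 1.67 ± 0.21 and 2.66 ± 0.23). Hk2, which traps glucose in the cell, fell by 1.89 and 1.43, and Pfkp, a subunit of phosphofructokinase, by 0.76 and 2.14 (-0.49 and -2.04 in thinned cells). Slc16a3, a lactate carrier, fell by 3.14 against cycling C1qa cells. Of 9 nutrient carriers tested, 5 rose, 2 fell and 2 did not pass the test (median log2 fold change 0.46) and 6 rose, 1 fell and 2 did not pass the test (median log2 fold change 0.39) in the same order. Tfrc was at 51.9, 47.0 and 46.0 CPM against 11.4, 17.3 and 11.9 and 21.3, 24.8 and 21.8, and rose against both (log2 fold change 1.79 ± 0.15 and 0.95 ± 0.11).

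Response genes set the cell types apart as well. Of the 20 immediate early and stress genes, 2 rose, 15 fell and 3 did not pass the test (median log2 fold change -1.88) against cycling C1qa cells, and 2 rose, 16 fell and 2 did not pass the test (median log2 fold change -1.93) against cycling Xcr1 cells. Dusp2, a phosphatase of MAP kinases in lymphocytes, rose against both, at 333, 403 and 371 CPM against 118, 117 and 109 and 51.3, 47.3 and 58.2 (log2 fold change 1.61 ± 0.09 and 2.68 ± 0.10), and Hspe1, a mitochondrial chaperone, was the other riser in each. Of the interferon-stimulated genes, 4 rose, 13 fell and 5 did not pass the test (median log2 fold change -0.74) among 22 tested against cycling C1qa cells, and 7 rose, 11 fell and 2 did not pass the test (median log2 fold change -0.67) among 20 against cycling Xcr1 cells. Gbp4, a GTPase induced by interferon gamma, rose, at 36.6, 32.8 and 33.6 CPM against 3.796, 5.53 and 4.99 and 0.652, 0.712 and 0.991 (log2 fold change 2.79 ± 0.17 and 5.27 ± 0.22). Its level in cycling Xcr1 cells was near 0, so the size of the second change is not firm, with 7.33 in thinned cells. Isg15 was at 50.3, 40.5 and 44.96 CPM against 93.8, 97.4 and 81.7 and 95.9, 123 and 105.

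The promoters of genes that move together in dividing cells carry shared letters. RefSeq promoters on GRCm38.p6, 250 bases before to 50 after each start, were found for 73 of the 87 mitosis genes (79 promoters), 47 of the 64 replication genes (53 promoters) and 21 of the 23 granule genes (24 promoters). TTTGAA, the core of the element bound by the MuvB complex, was present on either strand of 60.8% of mitosis promoters, and CCAAT, bound by NF-Y, of 74.7%, against 17.9 and 37.4% of all 32851 promoters. Both stood in 51.9% of mitosis promoters and 6.95% of all. TTTGGCGC or TTTCGCGC, forms of the E2F element, stood in 20.8% of replication promoters, 7.59% of mitosis promoters and 0.813% of all. CCAAT also stood in 54.7% and TTTGAA in 11.3% of replication promoters. Granule promoters held TTTGAA in 12.5%, CCAAT in 25% and neither E2F form. These are matches of letters, not sites. Examples are shown, with these motifs and their reverse complements in capitals. They were the most abundant among mitosis genes with both TTTGAA and CCAAT, among replication genes with an E2F form, and in the whole granule list. These are Hmgb2 (chr8:57511593-57511892, plus strand) and Tubb4b (chr2:25224653-25224952, minus strand) for mitosis, Mcm6 (chr1:128359656-128359955, minus strand) and Lig1 (chr7:13278576-13278875, plus strand) for replication, and Gzmc (chr14:56234608-56234907, minus strand) for the granule list. In Mcm6, TTTGGCGC and the reverse complement of TTTCGCGC overlap.
Hmgb2: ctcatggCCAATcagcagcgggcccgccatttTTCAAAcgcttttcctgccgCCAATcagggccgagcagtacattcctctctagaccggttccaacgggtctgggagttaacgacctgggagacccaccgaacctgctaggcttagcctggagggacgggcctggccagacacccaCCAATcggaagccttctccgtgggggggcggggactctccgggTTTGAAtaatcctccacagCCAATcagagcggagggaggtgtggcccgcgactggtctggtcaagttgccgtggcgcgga
Tubb4b: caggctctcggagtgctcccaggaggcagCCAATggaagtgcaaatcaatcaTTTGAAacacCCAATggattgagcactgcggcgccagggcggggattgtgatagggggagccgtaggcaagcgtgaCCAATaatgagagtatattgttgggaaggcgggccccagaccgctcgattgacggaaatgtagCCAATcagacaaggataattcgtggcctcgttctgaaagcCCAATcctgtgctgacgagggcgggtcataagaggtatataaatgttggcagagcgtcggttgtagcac
Mcm6: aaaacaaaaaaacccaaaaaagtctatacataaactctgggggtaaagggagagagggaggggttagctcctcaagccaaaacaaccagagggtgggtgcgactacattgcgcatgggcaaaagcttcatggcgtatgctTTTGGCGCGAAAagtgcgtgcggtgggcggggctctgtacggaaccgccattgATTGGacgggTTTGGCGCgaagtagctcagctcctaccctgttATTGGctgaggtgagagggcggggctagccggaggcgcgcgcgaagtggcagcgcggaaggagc
Lig1: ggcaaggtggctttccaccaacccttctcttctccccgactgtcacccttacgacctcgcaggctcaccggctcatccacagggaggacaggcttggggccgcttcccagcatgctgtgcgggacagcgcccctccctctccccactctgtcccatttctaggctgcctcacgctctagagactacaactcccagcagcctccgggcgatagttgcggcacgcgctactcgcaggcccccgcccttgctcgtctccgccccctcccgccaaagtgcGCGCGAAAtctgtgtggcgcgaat
Gzmc: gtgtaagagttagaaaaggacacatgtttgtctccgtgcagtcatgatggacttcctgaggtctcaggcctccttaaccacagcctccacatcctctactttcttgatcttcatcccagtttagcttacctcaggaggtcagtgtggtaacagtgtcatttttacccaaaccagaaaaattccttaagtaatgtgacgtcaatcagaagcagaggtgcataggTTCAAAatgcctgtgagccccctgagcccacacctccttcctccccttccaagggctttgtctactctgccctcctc

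Between genotypes, the share of NK cells that were cycling was highest in the WT library as counted, and differed less among the deeper cells. It was 19.6% of 708 NK cells in WT (95% Clopper-Pearson interval 16.8 to 22.8), 15.4% of 1131 in sGSN-/- (13.3 to 17.6) and 12.5% of 816 in sGSN-/-Clec9a-/- (10.3 to 14.97). Median depth of all NK cells fell in the same order, 9690.5, 7968 and 6729.5 UMIs. In cells thinned to 8263 UMIs the shares were 25.5% (21.4 to 30.0), 23.1% (19.6 to 26.8) and 25.6% (20.9 to 30.8), with all intervals overlapping. Thinning also left out the 285, 585 and 496 NK cells under that number. In the same deeper cells not thinned, the shares were 31.2% (26.82 to 35.86), 30.4% (26.57 to 34.45) and 30.0% (25.03 to 35.35). These intervals all overlapped as well. Among NK cells without transcripts of other lineages, not thinned, 12.7% (9.3 to 16.7), 10.7% (8.4 to 13.3) and 10.6% (7.8 to 14.0) were cycling, with all intervals overlapping. NK cells were 7.92, 21.2 and 13.4% of the barcodes that passed the gene and mitochondrial limits outside the cDC1 table, and cycling NK cells 1.56, 3.26 and 1.67%. These shares of a sorted sample depend on the gate and on how cells were mixed. Intervals cover counting error only, and mouse or library differences cannot be told apart from genotype.

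**Figure D3:**
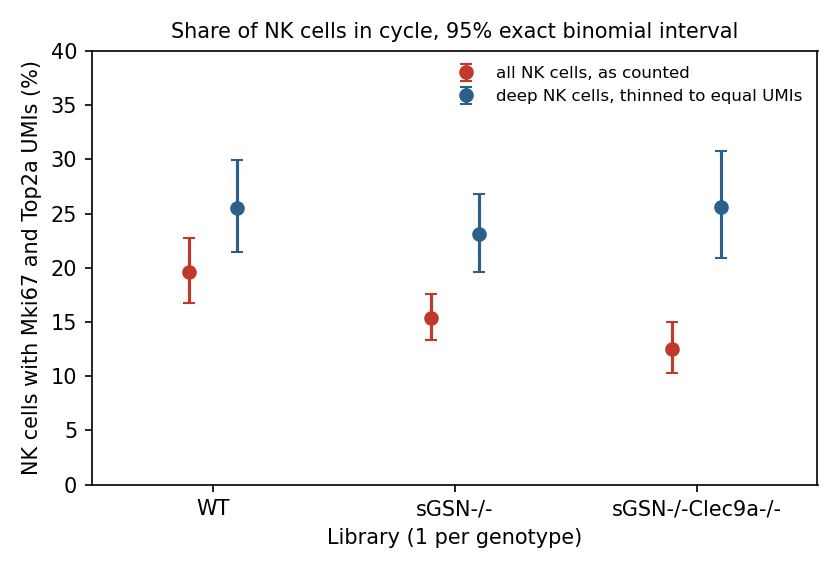
Share of NK cells that were cycling in each library, in percent with 95% Clopper-Pearson intervals, as counted and with cells thinned to 8263 UMIs. As counted the shares are 19.6, 15.4 and 12.5%, and thinned they are 25.5, 23.1 and 25.6%.

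Most genes of cycling NK cells differed little between libraries. Among genes at 100 CPM or more, the median absolute log2 ratio was 0.09 from WT to sGSN-/- (1498 genes) and 0.12 from sGSN-/- to sGSN-/-Clec9a-/- (1479 genes). The largest steps often rested on few cells. Ccl1, a chemokine for CCR8, was at 102, 339.7 and 24.9 CPM, yet its UMIs came from 11, 11 and 2 cells, with 96.8, 98.4 and 100% of them in the 5 highest cells. Olfr655, an olfactory receptor gene, had its 102 CPM in the sGSN-/-Clec9a-/- library from 3 cells. Lyz2, a myeloid gene, was at 184, 135 and 33.6 CPM, and at 32.1, 15.6 and 28.2 CPM without the cells with high doublet scores. The chemokine gene Cxcl2 was at 45.05, 104 and 30.9 CPM, and at 15.7, 17.97 and 32.2 CPM without them. Fabp5, a fatty acid carrier, and Mt1, a metallothionein, had 74.3, 35.5 and 28.4% and 37.8, 57.2 and 46.1% of their UMIs in the 5 highest cells.

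Other steps were spread over many cells. Ccl4 was at 336, 192 and 398 CPM in 85, 104 and 67 cells, lowest in the sGSN-/- library, whereas in non-cycling NK cells it was 746, 926 and 1123 CPM. Klra3, a Ly49 receptor, was at 75.7, 114 and 94.3 CPM and Ighm, the immunoglobulin mu chain, at 82.6, 114 and 104 CPM. Cebpb, a transcription factor, was at 134, 102 and 31.4 CPM, and was lowest in the sGSN-/-Clec9a-/- library also in non-cycling NK cells (237, 194 and 44.7) and in cycling C1qa cells (404, 370.2 and 134). Gm42418 and Lars2 were highest in the sGSN-/-Clec9a-/- library, at 8061, 6942 and 14470 and 179.6, 137 and 292 CPM, and Gm42418 was so in cycling C1qa cells too (12264, 12549.5 and 18219). The histone gene Hist1h2ap was at 6779.6, 3478 and 5428 CPM and AC149090.1, an unnamed gene, at 128, 53.7 and 107 CPM, each lowest in the sGSN-/- library. With 1 library per genotype no step has a test.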

How the data were processed

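The data are 3 droplet scRNAseq libraries of sorted tumour cells, 1 per genotype. The values deposited by the authors are unnormalized UMI counts for each gene in each barcode, made with Cell Ranger 6.0.1 (per the file headers) on the mm10 (GRCm38) reference. The deposited table of cDC1s was used only to leave its barcodes out. The members and gene lists were chosen with earlier results of these data known. UMIs were summed per library and cell group and compared with edgeR 4.0.16 in R 4.3.3 (quasi-likelihood F-test, two-sided, TMM factors, filterByExpr, Benjamini-Hochberg adjustment over all genes tested), which was also tested on simulated data. The 9 genes of the rule were left out of the calls. CPM are plain shares of UMIs, whereas log2 fold changes include the TMM factors, and ± marks the SD of CPM or the standard error of a fold change. Cells were counted in python 3.11.15, with Scrublet in scanpy 1.11.5, where the 6% of barcodes with the highest score in each library were taken as doublets. Sums of 1 library come from 1 pool of mice, and the correlation of their deviations was 0.104, 0.0706 and 0.13 against non-cycling NK cells, 0.0373, 0.0321 and 0.0501 against cycling C1qa cells, and 0.0752, -0.0152 and 0.0138 against cycling Xcr1 cells. Library as a block was an alternative, as were DESeq2 1.42.0, library size without TMM, omission of 1 library at a time, all genes without the low-count filter, cells thinned to 8263 UMIs (the value at percentile 5 of cycling NK cells), doublets left out, 2 or more UMIs of Mki67 and Top2a, and cells with Cd3d, Cd3g, Clec9a, Lyz2 or C1qb left out. Cells at or above 8263 UMIs, not thinned, were an alternative chosen after seeing the data. Most named genes were picked from list members that passed the test or were among the 6 most abundant of their list, and from the 10 largest and 10 smallest changes at 50 CPM or more. Some, such as Cd96 and Myc, met none of these conditions against non-cycling NK cells. Between genotypes the named genes were picked from the 5 highest and 5 lowest ratios of genes reaching 100 CPM, after adding 1 CPM to both sides. Y-linked genes and Xist were left out. Names shared by near-identical copies, such as Klra, Gzm and histone genes, may take each other's UMIs.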

Additional observations from a re-analysis of the deposited data

Results flagged for a closer look

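Of 559 genes in the lists, 9 had a ratio of cycling to non-cycling NK cells above 1 in one library and below 1 in another, each beyond its counting interval and with at least 10 UMIs in both groups of each library compared. The difference between libraries was not tested, as each genotype had 1 library. Values are log2 ratios in WT, sGSN-/- and sGSN-/-Clec9a-/- cells in turn.

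Lyz2, a myeloid lysozyme gene, had ratios of 1.05, 1.34 and -1.29. Without the cells with high doublet scores, Lyz2 in cycling cells went from 184, 135 and 33.6 to 32.1, 15.6 and 28.2 CPM. These values lie below those of non-cycling cells, 88.5, 53.35 and 82.26 CPM with no cells left out. Apoe, a lipid carrier of macrophages, had ratios of 1.21, -0.50 and -1.17. Tbc1d4, a regulator of vesicle transport, had ratios of 1.94, -1.01 and 1.48. For Lyz2, Apoe and Tbc1d4 in the WT library, 84.2, 82.6 and 96.8% of the UMIs lay in the 5 highest cells. Ifi27l2a, an interferon-induced gene, had ratios of 0.10, 1.06 and -2.29. Ier3, an early response gene, had ratios of 1.62, 0.39 and -1.09. The heat shock genes Hspa1a and Dnajb1 had ratios of 0.41, -0.57 and -1.23 and of 0.27, -0.06 and -0.51. Crtam, an adhesion receptor of NK cells, had ratios of 0.56, 0.68 and -0.81. Ikzf2, the transcription factor Helios, went the other way with ratios of -0.40, 0.22 and 0.69.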

How the results depend on the processing

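Under other choices of method, cells and libraries, the 118 log2 fold changes printed for single genes gave 1412 values, of which 1384 kept their direction and call. 24 were weaker, 0 stronger and 4 reversed. The reversals were Ifng, at 0.28 with cells thinned to 8263 UMIs and 0.32 in cells of that depth not thinned, and Klf2, at 0.69 and 0.38. Of these only Klf2 in thinned cells passed the test. The choice of cells by depth was made after seeing the data in the second case. Ccl3, Ccl4, Eomes, Itga2, Tbx21, Zeb2 and Csf2 were weaker in both, and S1pr5 could not be tested there. The cause was not tested.

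With library as a block more genes passed against non-cycling NK cells, 2249 higher and 2127 lower. Fewer passed in some other settings. DESeq2 found 1235 lower, thinned cells 1038 higher and 756 lower, and deep cells not thinned 1086 lower. With 1 library left out, between 1078 and 1581 were lower, the former without sGSN-/- and the latter without sGSN-/-Clec9a-/-. Csf2 did not pass with DESeq2, without the sGSN-/- library or with 2 or more UMIs of Mki67 and Top2a. Ccl3 did not pass with DESeq2, Klf2 and Tbx21 without sGSN-/-, and Tbx21 without WT. Gzmb, Klra5 and Tbx21 did not pass without cells that held transcripts of other lineages, where Tbx21 at -0.45 was no smaller than before.

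The share of NK cells that cycle also moved. In WT, sGSN-/- and sGSN-/-Clec9a-/- cells it was 25.5, 23.1 and 25.6% when thinned (24.5% together), and 31.2, 30.4 and 30.0% in deep cells not thinned (30.6%). With Mki67 or Top2a enough it was 37.2, 34.6 and 26.4% (32.7%), and with 2000 genes or more 25.9, 23.3 and 24.0% (24.3%). Without cells that held transcripts of other lineages it was 12.7% in WT, 10.7% in sGSN-/-, 10.6% in sGSN-/-Clec9a-/- and 11.2% together. With all 3 NK genes required it was 17.2% together. The share of S phase UMIs was 29.2% with 2 or more UMIs of Mki67 and Top2a.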
